A study of Mus musculus with 563 samples.

Results

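The 40 genes described here repair double-strand breaks and crosslinks in DNA, or sense them. They were taken by name from a list chosen with earlier results of these data known, out of 46078 gene rows in 2 count tables. All 40 were found. By role they comprised 13 genes of homologous recombination, 10 Fanconi anemia genes, 10 genes of break sensing and checkpoint signalling, 5 genes of end joining, and Msh6 and Parp1, which act in mismatch and single-strand break repair. Homologous recombination copies the lost sequence from the sister chromatid, so it works mainly in S and G2 phase, while end joining ligates broken ends at any stage of the cell cycle. The Fanconi proteins unhook crosslinks at stalled replication forks and pass the resulting break to recombination, and inherited loss of them leads to bone marrow failure. Most hematopoietic stem cells (HSCs) are out of cycle, and breaks in such cells are mainly joined end to end.

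Single HSCs were sorted from crushed bone marrow into 96-well plates, and their RNA was read with an adapted Smart-seq2 method, which covers whole transcripts without molecular identifiers. All 4 groups carried the Gfp-Lc3 genotype, in which green fluorescent protein is fused to the autophagosome protein LC3, and were isolated at steady state. The groups were old HSCs labelled HI, old HSCs labelled MID, old HSCs labelled LO, and young HSCs. The labels give no age in months, name no animal and do not say whether HI, MID and LO rank the brightness of the reporter or autophagy. Each group is therefore treated as 1 sample, so that the differences carry no test. Levels are given side by side for the first and the second table, since the labels do not say what separates the tables. Read totals of single genes, shares of thinned cells and numbers of genes read per cell pool the tables unless stated.

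Of 563 cells, 533 were kept: 68 and 61 HI, 68 and 66 MID, 65 and 71 LO, and 63 and 71 young cells in the first and the second table. Kept cells held 50339 to 1064879 reads in nuclear genes, with group medians of 340529 in HI, 254723 in MID, 257238 in LO and 271443 in young cells. HI cells also held 70.3 nuclear gene reads per spike-in read, against 50.02 in MID, 49.05 in LO and 46.9 in young cells. All 10 HSC markers were read in every group, and Kit was read in every kept cell. Of the 8 marker lists of other blood and stromal cells, that of monocytes and macrophages was the highest, at 363 to 466 CPM in all groups and tables, of which Lyz2, read in at least 91.2% of the cells of each group, made up 343 to 428 CPM. The dendritic list summed to 68.05 to 113.4 CPM, led by Bst2, and the B cell list to 33.8 to 90.4 CPM, led by Cd79b. The 8 neutrophil markers summed to 4.49 and 1.28 CPM in HI cells, 10.2 and 3.78 in MID cells, 16.9 and 9.11 in LO cells, and 3.64 and 3.55 in young cells. Levels are counts per 1000000 nuclear gene reads (CPM), summed over the cells of a group and table. Differences are on the log2(CPM + 1) scale, as the mean of the tables with each table in brackets. A gene was called higher or lower when it differed by 0.58 (1.5-fold) or more in the same direction in each table, and only genes that averaged 10 CPM or more and were read in 10% or more of the kept cells could be called. Intervals on reads are exact Poisson and those on shares of cells exact Clopper-Pearson at 95%. They cover counting error only, because reads of 1 molecule and cells of 1 animal are not independent.

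The comparison of HI with LO cells asks how old HSCs at the ends of the sort differ. Of the 40 members, 36 passed the level filter, and Rad51c, Fancb, Atrip and Lig4 did not. Of the 36, 13 were called higher in HI cells, where 4.85% of all 10696 filtered genes were, and 0 were called lower, against 3.30% of all genes. Under a stricter rule that asks for a 2-fold mean difference in well read genes, 12 members were higher, against 2.49% of all genes. Because the members were chosen with earlier results of these data known, these counts beside the shares of all genes are only descriptive. The 13 were 7 recombination genes (Rad51ap1, Rad54b, Brca1, Bard1, Rad54l, Exo1 and Brca2), 3 Fanconi genes (Fancd2, Fanca and Fanci) and 3 signalling genes (Chek1, Clspn and Topbp1). Of the 4 end joining genes above the filter, 0 were called, which for so few genes cannot be told from the share of all genes. The median difference over the 23 recombination and Fanconi members was 1.45, with medians of 1.005 and 0.887 in the single tables. It fell on Fancb, below the filter, and over the 21 members above the filter the median was 0.90. Over the 5 end joining members it was 0.41, with 0.26 and 0.20 in the single tables, and 0.32 over the 4 above the filter. The median over all filtered genes was 0.02.

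**Figure D1:**
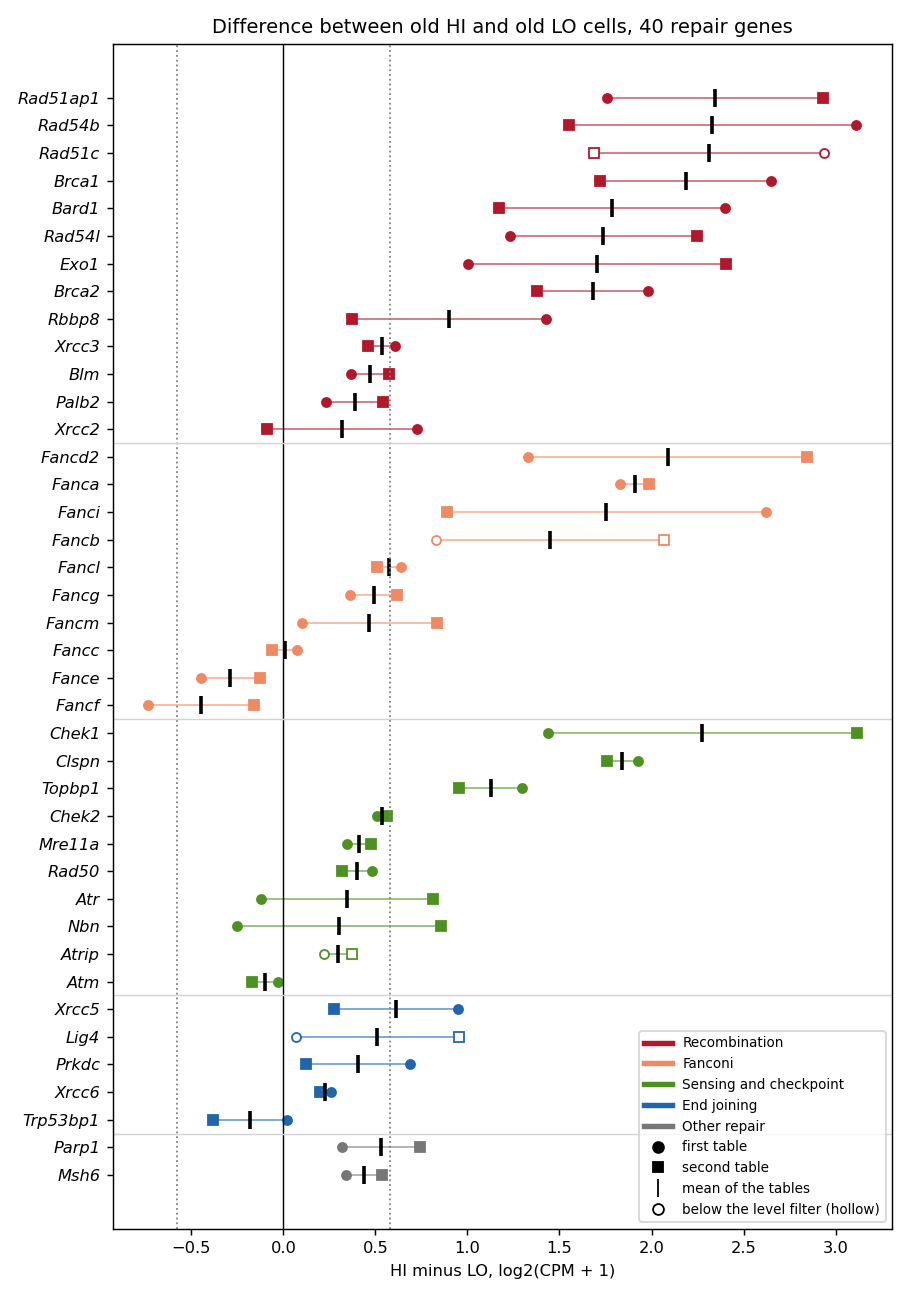
Difference of old HI minus old LO cells on the log2(CPM + 1) scale for the 40 members, ordered within each role. Circles and squares are the first and second table, ticks their mean, hollow symbols genes below the level filter, and dotted lines the 0.58 bound. The 13 called genes lie right of the bound in both tables, and the end joining genes lie between -0.38 and 0.95.

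Among the recombination genes, Rad51ap1, which stimulates pairing of homologous strands, had 46.4 and 65.01 CPM in HI cells, 10.7 and 26.1 in MID cells, 13.01 and 7.66 in LO cells, and 22.5 and 44.3 in young cells. Both HI values lay above all others. The difference of HI minus LO was 2.34 (1.76 and 2.93), from 2750 reads (2648 to 2855) in HI cells and 402 reads (364 to 443) in LO cells. A single LO cell, number 58 in the first table, held 45.5% of the LO reads, and without it the difference was 3.16. After each cell was thinned to 100000 reads, Rad51ap1 was read in 33.3% (25.1 to 42.4%) of HI cells, 11.02% (6.16 to 17.8%) of MID cells, 7.32% (3.40 to 13.4%) of LO cells and 19.5% (13.1 to 27.5%) of young cells.

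Rad54b, a DNA translocase of recombination, had 30.3 and 49.3 CPM in HI cells, 19.2 and 9.60 in MID cells, 2.62 and 16.2 in LO cells, and 25.4 and 24.7 in young cells. The HI values again lay above the rest, and the LO values stood 6-fold apart between the tables. Its difference was 2.33 (3.11 and 1.55), and 2.92 without LO cell 58. Fsbp covers 35.8% of the Rad54b exon length on the same strand, so how reads in the shared exons were assigned is uncertain, and Fsbp itself stayed at 3.27 CPM or below in every group and table.

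Brca1, the ubiquitin ligase subunit that promotes resection of broken ends, had 39.1 and 71.7 CPM in HI cells, 17.3 and 14.9 in MID cells, 5.40 and 21.1 in LO cells, and 27.5 and 17.01 in young cells. Both HI values exceeded those of every other group. The difference was 2.18 (2.65 and 1.72), from 2727 reads (2626 to 2831) in HI cells and 526 reads (482 to 573) in LO cells. Thinned cells with a Brca1 read made up 39.02% (30.4 to 48.2%) of HI cells, 11.02% (6.16 to 17.8%) of MID cells, 11.4% (6.36 to 18.4%) of LO cells and 16.4% (10.5 to 23.98%) of young cells.

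Bard1, the partner of BRCA1, was higher in HI than in LO cells by 1.79 (2.40 and 1.17). Brca2, which acts on resected single-stranded DNA, was higher by 1.68 (1.98 and 1.38). Rad54l, a second translocase, was higher by 1.74 (1.23 and 2.25), and Exo1, an exonuclease of end resection, by 1.70 (1.01 and 2.40). The recombination genes that were not called all had positive mean differences: Rbbp8, which starts resection, at 0.90, Xrcc3 at 0.53, the helicase gene Blm at 0.47 and Palb2, the bridge between BRCA1 and BRCA2, at 0.39. The lowest was Xrcc2, which acts in strand pairing, with 31.9 and 20.6 CPM in HI cells, 18.6 and 25.7 in MID cells, 18.9 and 21.996 in LO cells, and 22.3 and 24.8 in young cells. Its groups overlapped, and its difference was 0.32 (0.73 and -0.09). Rad51c, which encodes a partner of XRCC2 and XRCC3 and was below the filter, had 389 reads (351 to 430) in HI cells and 38 reads (27 to 52) in LO cells.

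Promoter windows from RefSeq (GRCm38.p6), which span 250 bases before to 50 after each annotated start, were found for 32 of the 40 members. Rad54b, Xrcc2, Exo1, Rbbp8, Rad50, Nbn, Fancd2 and Prkdc were not among them. The windows were searched on both strands for the letters bound by 3 families of cell cycle regulators: the E2F site (TTTCCCGC, TTTCGCGC, TTTGCCGC or TTTGGCGC), the NF-Y site (CCAAT) and the cell cycle homology region, CHR (TTTGAA or TTCGAA). Different motifs did not overlap in the members' windows. A member with several windows, such as Rad54l, counted when any of them matched, while shares of all windows count each window singly. Counts of members can therefore be raised against those shares. E2F letters occurred in 9 of the 32 members, against 2.26% of all 32851 windows: Bard1, Brca2 and Rad51c in recombination, Fancg, Chek2, Clspn and Topbp1, and also Xrcc6 in end joining and Msh6. NF-Y letters occurred in 20 of the 32, against 37.4% of all windows, and CHR letters in Bard1 and Atr, against 19.2%. By role, NF-Y letters were in 12 of 18 recombination and Fanconi windows and in 2 of 4 end joining windows, and E2F letters in 4 of 18 and 1 of 4. A match of letters is a description of the sequence and not evidence of binding.

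The 250 bases before the start are shown 5′ to 3′ along each gene for 6 members, with E2F and NF-Y letters in capitals. Rad51ap1 had the highest difference of HI minus LO with a window, and Trp53bp1 the lowest of the end joining genes. Bard1, Brca2, Topbp1 and Xrcc6 were chosen after their values were seen, as members with an E2F match before the start. Chek2, Fancg and Rad51c also had such a match, were not called higher in HI cells and are not shown.
Rad51ap1, chr6:126939588-126939837, minus strand: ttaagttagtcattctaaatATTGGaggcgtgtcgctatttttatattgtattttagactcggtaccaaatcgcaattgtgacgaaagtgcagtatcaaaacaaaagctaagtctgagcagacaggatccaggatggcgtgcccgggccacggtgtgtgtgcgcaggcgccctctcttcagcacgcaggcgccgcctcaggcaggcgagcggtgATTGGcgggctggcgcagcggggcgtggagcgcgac
Bard1, chr1:71102973-71103222, minus strand: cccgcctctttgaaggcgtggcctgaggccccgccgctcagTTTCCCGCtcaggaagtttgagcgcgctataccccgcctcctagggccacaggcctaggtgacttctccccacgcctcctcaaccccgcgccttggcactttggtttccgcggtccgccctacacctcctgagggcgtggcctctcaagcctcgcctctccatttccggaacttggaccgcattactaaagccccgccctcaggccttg
Brca2, chr5:150522371-150522620, plus strand: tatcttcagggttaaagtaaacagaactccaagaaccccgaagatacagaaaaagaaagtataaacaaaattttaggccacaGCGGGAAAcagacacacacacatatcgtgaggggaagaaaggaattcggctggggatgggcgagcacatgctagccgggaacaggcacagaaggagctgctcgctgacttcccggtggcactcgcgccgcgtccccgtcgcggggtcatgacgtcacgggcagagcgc
Topbp1, chr9:103305077-103305326, plus strand: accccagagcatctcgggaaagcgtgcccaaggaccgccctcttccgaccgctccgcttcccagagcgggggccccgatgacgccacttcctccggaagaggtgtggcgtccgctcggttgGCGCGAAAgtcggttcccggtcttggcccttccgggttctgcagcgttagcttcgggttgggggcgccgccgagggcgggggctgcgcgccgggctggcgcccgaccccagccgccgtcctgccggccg
Xrcc6, chr15:82016119-82016368, plus strand: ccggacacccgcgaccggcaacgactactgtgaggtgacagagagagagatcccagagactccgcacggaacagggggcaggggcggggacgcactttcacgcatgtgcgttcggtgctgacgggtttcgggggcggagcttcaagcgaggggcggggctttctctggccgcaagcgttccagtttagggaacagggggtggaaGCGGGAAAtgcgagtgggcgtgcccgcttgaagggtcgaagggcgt
Trp53bp1, chr2:121271408-121271657, minus strand: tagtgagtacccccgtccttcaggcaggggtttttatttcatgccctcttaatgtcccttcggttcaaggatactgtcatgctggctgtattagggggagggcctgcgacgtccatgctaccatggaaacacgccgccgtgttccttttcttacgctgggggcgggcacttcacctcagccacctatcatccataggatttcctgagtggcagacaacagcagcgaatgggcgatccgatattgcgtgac
The Rad51ap1 window holds NF-Y letters that begin 230 and 36 bases before the start, in reverse orientation. The E2F letters begin 209 bases before the start in Bard1, 168 in Brca2 and 46 in Xrcc6, and lie between those of Brca2 and Xrcc6 in Topbp1, and the Trp53bp1 window holds none of the 3 motifs. Xrcc6, an end joining gene that was not called, thus carries the same E2F letters as Brca2.

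Of the 9 Fanconi genes above the filter, 3 were called. Fancd2 and Fanci encode the pair that is ubiquitinated as the central step of the pathway, and Fanca belongs to the core ligase complex that does this. Fancd2 had 19.4 and 34.8 CPM in HI cells, 6.52 and 4.30 in MID cells, 7.13 and 3.98 in LO cells, and 17.9 and 25.1 in young cells. HI and young cells were high and MID and LO cells low, with no overlap between these pairs of groups. The difference of HI minus LO was 2.09 (1.33 and 2.85), from 1335 reads (1264 to 1409) in HI cells and 216 reads (188 to 247) in LO cells.

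Fanca had 28.3 and 43.6 CPM in HI cells, 9.26 and 28.2 in MID cells, 7.24 and 10.3 in LO cells, and 10.3 and 17.1 in young cells. Its difference was 1.91 (1.83 and 1.99), and 2.54 without LO cell 96 of the second table. Fanci had 21.6 and 15.4 CPM in HI cells, 12.5 and 3.64 in MID cells, 2.67 and 7.86 in LO cells, and 8.65 and 9.29 in young cells, a difference of 1.75 (2.62 and 0.89). For both genes the lowest HI value lay above every LO and young value. Fanca shares 10.5% of its exon length with Zfp276 and Fanci shares 15.9% with Polg, each on the opposite strand. Zfp276 differed by 0.50 and -0.47 in the tables and Polg by -0.11 and 1.58, and how reads in the shared exons were assigned was not tested.

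The other core complex members were not called. Fancl, the ligase subunit, differed by 0.57 (0.64 and 0.51), Fancg by 0.49 (0.36 and 0.62), Fancm, the translocase that anchors the complex, by 0.47 (0.10 and 0.83), and Fancc by 0.01 (0.07 and -0.06). Fance and Fancf were the members with negative values in both tables within the Fanconi group, at -0.29 (-0.45 and -0.13) and -0.45 (-0.73 and -0.16). Fancf had 17.6 and 24.4 CPM in HI cells, 20.4 and 14.9 in MID cells, 29.9 and 27.4 in LO cells, and 14.3 and 15.3 in young cells, so the LO cells were its highest group in each table. Fancb, which is X-linked and below the filter, had 12.1 and 19.6 CPM in HI cells and 6.398 and 3.93 in LO cells.

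Among the signalling genes, the 3 called ones act at replication forks. Chek1, the checkpoint kinase activated by ATR, had 37.5 and 65.5 CPM in HI cells, 25.5 and 29.1 in MID cells, 13.2 and 6.67 in LO cells, and 17.6 and 20.9 in young cells. The levels followed the order HI, MID, LO in both tables, and the young cells lay between MID and LO cells. Its difference of HI minus LO was 2.28 (1.44 and 3.12), and 2.89 without LO cell 96. Chek1 was read in 44.7% (35.7 to 53.9%) of thinned HI cells, 18.1% (11.8 to 25.9%) of MID cells, 11.4% (6.36 to 18.4%) of LO cells and 19.5% (13.1 to 27.5%) of young cells. In HI cells this share was 35.4% in the first and 55.2% in the second table.

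Clspn, the adaptor through which ATR reaches CHK1, had 63.2 and 86.02 CPM in HI cells, 16.1 and 28.2 in MID cells, 15.9 and 24.7 in LO cells, and 34.6 and 31.1 in young cells, a difference of 1.84 (1.93 and 1.76). Topbp1, the activator of ATR, had 224 and 204 CPM in HI cells, 142.98 and 156 in MID cells, 90.6 and 104.7 in LO cells, and 145 and 126.96 in young cells, a difference of 1.13 (1.30 and 0.95). In both genes the HI values lay above those of all other groups, the young values of Clspn lay above all its MID and LO values, and the LO values of Topbp1 lay below all its other values.

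The kinases and the break sensing complex showed smaller differences. Atm, the kinase that responds to double-strand breaks, had 75.6 CPM in HI cells, 86.98 in MID cells, 85.1 in LO cells and 100.5 in young cells in the second table, and young cells were its highest group in the first table too. At -0.10 (-0.03 and -0.17) it was the lowest of the signalling genes. Atr differed by 0.34 (-0.12 and 0.81) and Chek2, the kinase downstream of ATM, by 0.54 (0.51 and 0.56). Mre11a, Rad50 and Nbn, which encode the complex that binds broken ends, differed by 0.41 (0.35 and 0.48), 0.40 (0.48 and 0.32) and 0.30 (-0.25 and 0.85). Atrip, the partner of ATR, stayed at 4.59 CPM or below in every group and table.

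The 5 end joining genes had HI minus LO differences from -0.18 to 0.61. Trp53bp1, which shields ends from resection, had 200.5 and 178 CPM in HI cells, 188 and 246 in MID cells, 198 and 232 in LO cells, and 211 and 199 in young cells. Its groups overlapped, its difference of HI minus LO was -0.18 (0.02 and -0.38), and it was read in 93.5% (87.6 to 97.2%) of thinned HI cells, 92.1% (85.996 to 96.2%) of MID cells, 93.5% (87.6 to 97.2%) of LO cells and 89.1% (82.3 to 93.9%) of young cells. Tubgcp4 shares 15.04% of its exon length on the opposite strand.

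Xrcc5 and Xrcc6 encode the Ku subunits that bind free ends, and Prkdc the catalytic kinase subunit they recruit. Xrcc5 had 96.5 and 54.5 CPM in HI cells, 50.7 and 57.4 in MID cells, 49.5 and 44.9 in LO cells, and 66.97 and 64.98 in young cells, a difference of 0.61 (0.95 and 0.27) that passed the bound in the first table and not in the second. Xrcc6 had 119.9 and 93.3 CPM in HI cells, 99.5 and 110.8 in MID cells, 100.01 and 81.2 in LO cells, and 110.6 and 100.4 in young cells, a difference of 0.23 (0.26 and 0.20). Prkdc had 168 and 107.1 CPM in HI cells, 142.9 and 98.2 in MID cells, 103.8 and 98.1 in LO cells, and 145 and 106.004 in young cells, a difference of 0.41 (0.69 and 0.13). The HI values of Xrcc6 and Prkdc overlapped with those of MID and young cells. Lig4, the ligase that seals the ends, was near the limit of detection, at 0.158 and 3.06 CPM in HI cells, 3.10 and 2.41 in MID cells, 0.105 and 1.09 in LO cells, and 0.102 and 4.49 in young cells, and in HI cells 1 cell held 93.6% of its reads.

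Msh6, which recognises mismatches, had 69.6 and 58.3 CPM in HI cells, 63.5 and 49.97 in MID cells, 54.7 and 39.9 in LO cells, and 55.9 and 39.4 in young cells, a difference of 0.44 (0.34 and 0.54). Parp1, which senses strand breaks, had 161 and 215 CPM in HI cells, 132.5 and 137.7 in MID cells, 128.8 and 128.3 in LO cells, and 122.2 and 147 in young cells, a difference of 0.53 (0.32 and 0.74). Neither was called.

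**Figure D2:**
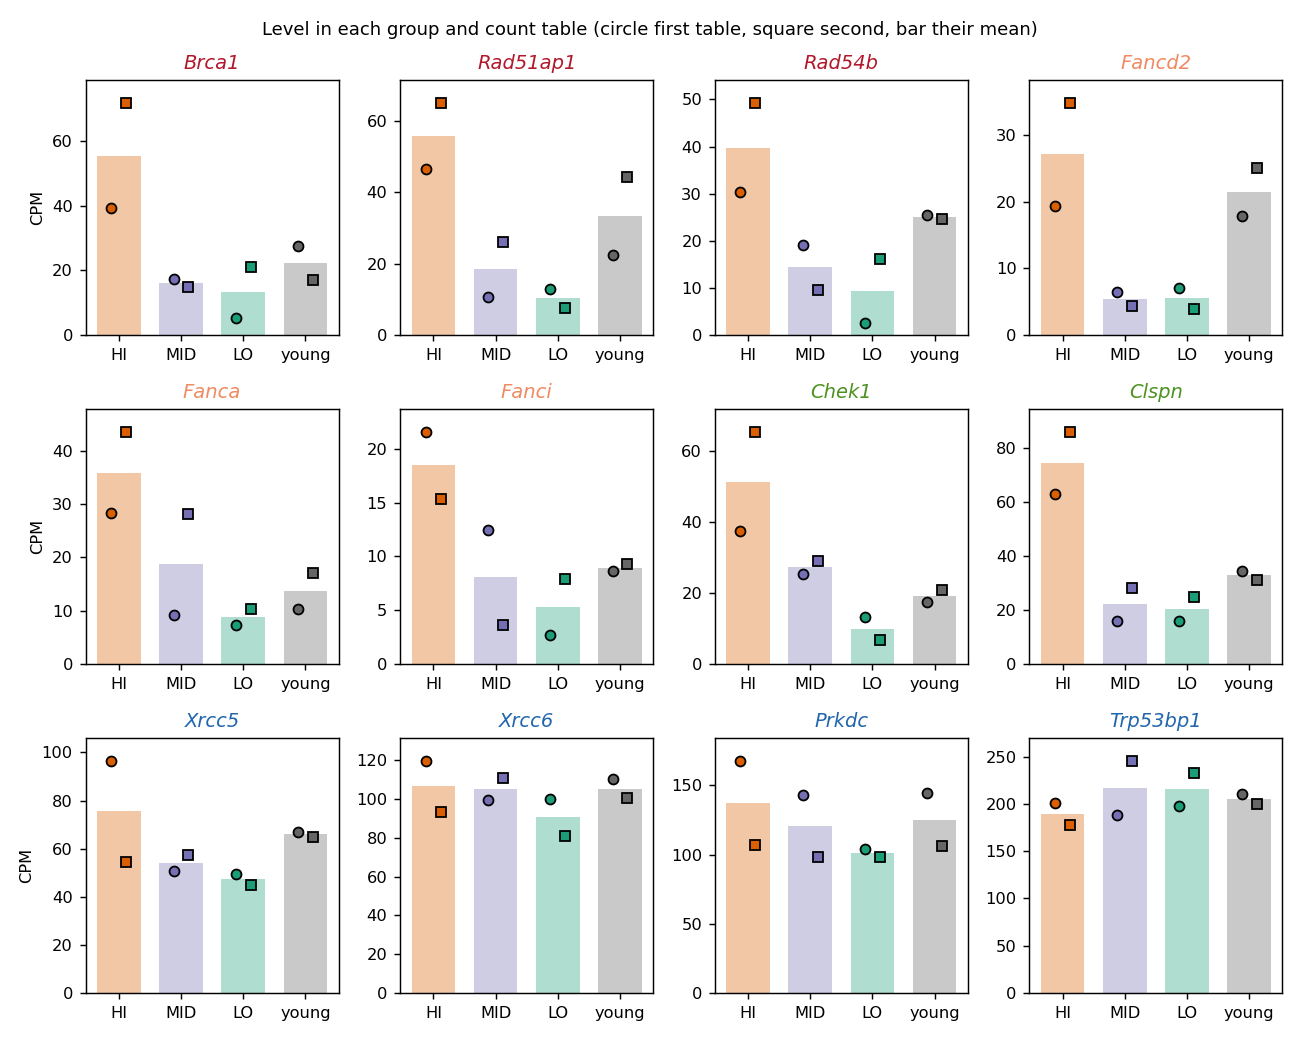
Level in CPM of 12 members in old HI, old MID, old LO and young cells, with a circle for the first table, a square for the second and a bar for their mean, each panel on its own scale from 0. The first 8 panels show recombination, Fanconi and signalling genes whose mean is highest in HI cells, such as Brca1 at 39.1 and 71.7 CPM, and the last row shows end joining genes, of which 0 were called, with Trp53bp1 at 178 to 200.5 CPM in HI cells and 198 to 232 in LO cells.

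Levels were also set per length of transcript, in RPKM (CPM divided by the exon length in kilobases). In HI cells the 12 recombination genes above the level filter ranged from 3.63 RPKM (Palb2) to 15.5 (Xrcc3), and the 4 end joining genes above it from 10.4 to 29.6. In LO cells the same recombination genes ranged from 1.55 RPKM (Brca1) to 10.7 (Xrcc3), and the same end joining genes from 7.66 to 20.2. Below the filter, Rad51c had 1.79 RPKM in HI and 0.22 in LO cells, and Lig4 had 0.31 in HI and 0.12 in LO cells. Parp1 was the highest member in HI cells at 35.6 RPKM, with Xrcc5 at 29.6 and Nbn at 28.97. These levels carry the bias of exon length and of the assignment of shared exons.

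Against MID cells, HI cells were higher in 15 of 36 members, where 4.07% of all genes were called, and lower in 0, against 2.23%. Besides 11 of the 13 genes above, these were Palb2, Rbbp8, Chek2 and Mre11a. Both comparisons share the HI cells. Palb2 differed by 1.97 (1.39 and 2.56) from MID cells and had 20.6 and 32.8 CPM in HI cells, 7.24 and 4.73 in MID cells, 17.4 and 22.2 in LO cells, and 16.03 and 23.02 in young cells, so its MID values were the lowest in each table. Between MID and LO cells 1 member was higher in MID cells, Chek1 at 1.43 (0.90 and 1.97), against 1.55% of all genes, and 1 was lower, Palb2 at -1.59 (-1.16 and -2.02), against 1.67%. These counts cannot be told from the shares of all genes.

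The repair genes were also counted cell by cell. In cells thinned to 100000 reads, the median number of the 23 recombination and Fanconi genes with a read was 7 in HI cells, 5 in MID cells, 5 in LO cells and 4.5 in young cells. At least 8 of them were read in 45.5% (36.5 to 54.8%) of HI cells, 11.02% (6.16 to 17.8%) of MID cells, 13.8% (8.26 to 21.2%) of LO cells and 24.2% (17.1 to 32.6%) of young cells. The highest counts in single cells were 22 genes in HI, 20 in MID, 18 in LO and 19 in young cells. The upper end was thus reached in all groups, by a larger share of HI cells. Of the 5 end joining genes, the median cell had a read in 3 in each group, and the mean was 3.05 in HI and 2.69 to 2.74 in the other groups. This count has little room to move, with Lig4 read in 1.63 to 4.69% of the cells of a group. Xrcc5 was read in 60.2% of thinned HI and 47.97% of LO cells, Prkdc in 80.5% and 69.1%, and Xrcc6 in 69.1% and 61.8%, while Trp53bp1 and Lig4 had equal shares in both.

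Genes of the cell cycle moved with these differences. Of 27 filtered S phase genes, 25 were called higher in HI than in LO cells and 0 lower. The median over the 28 listed was 1.44 (1.51 and 1.38). Of 30 genes of G2 and M phase, 22 were higher and 0 lower, with a median of 2.07 (1.22 and 2.93). Of all genes, 4.85% were higher and 3.30% lower. A single LO cell, number 58, held 80.9% of the G2 and M phase gene reads of LO cells in the first table. Mcm10, a replication factor, differed by 2.56, and Plk1, a mitotic kinase, by 3.03. Cells with a read in at least 8 of the 30 G2 and M phase genes made up 35.8% (27.3 to 44.9%) of thinned HI cells, 7.09% (3.29 to 13.03%) of MID cells, 4.88% (1.81 to 10.3%) of LO cells and 14.1% (8.55 to 21.3%) of young cells. By table these shares were 27.7% and 44.8% in HI, 7.69% and 6.45% in MID, 3.51% and 6.06% in LO, and 10.2% and 17.4% in young cells.

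These G2 and M phase cells held 67.9% of the recombination and Fanconi reads of HI cells, 60.4% of the signalling reads and 37.7% of the end joining reads, beside 42.7% of all nuclear gene reads. Of the Rad54b, Fancd2 and Rad51ap1 reads in HI cells they held 98.1%, 97.99% and 97.5%, and of the Trp53bp1 reads 32.8%. In such cells the median number of recombination and Fanconi genes read was 15.5 in HI (44 cells), 17 in MID (9 cells), 16 in LO (6 cells) and 15 in young (18 cells). In cells below both the G2 and M phase bound and a bound of 10 of 28 S phase genes, it was 4 in HI (33 cells), 4 in MID (68 cells), 4 in LO (72 cells) and 3 in young (55 cells). The cells below both bounds thus read about as many of these genes in each group. The S phase bound was a loose one, passed by 73.2% of HI, 46.5% of MID, 41.5% of LO and 55.5% of young cells. Cells past only that bound read a median of 5 of these genes in each group, and passing it does not place a cell in S phase. Every HI cell past the G2 and M phase bound also passed the S phase bound. The name G2 and M phase cells likewise stands for a count of genes read, not a measured phase.

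**Figure D3:**
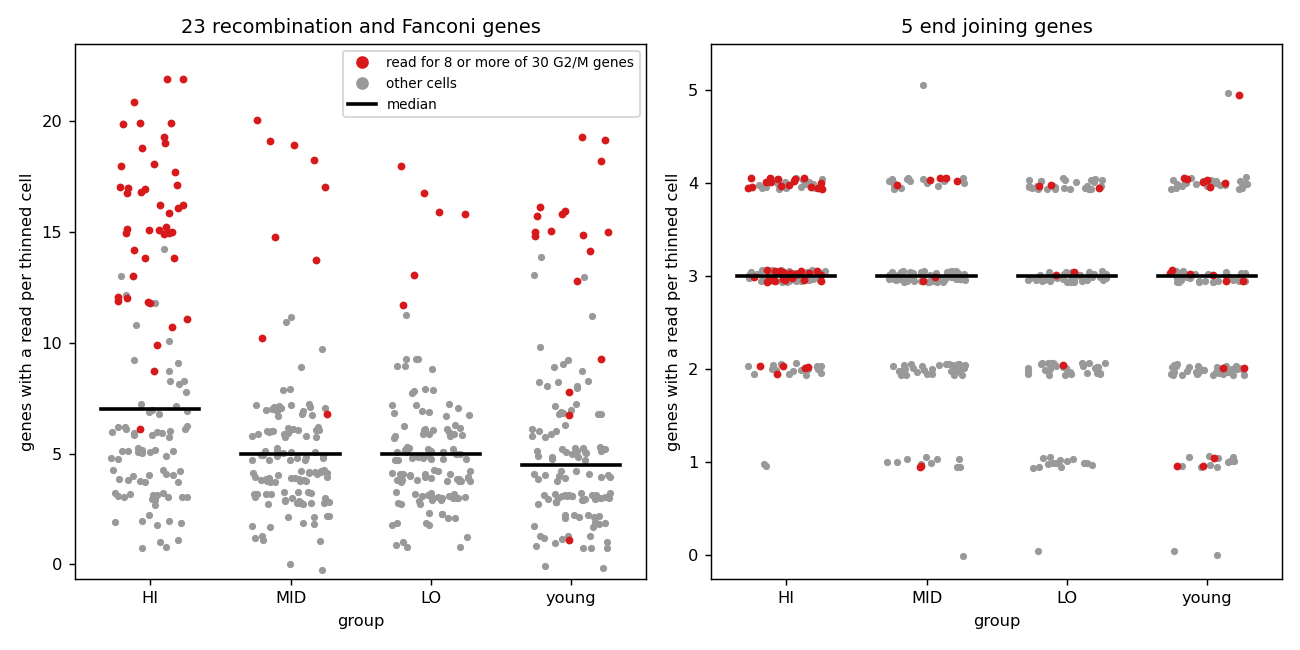
Number of the 23 recombination and Fanconi genes (left) and of the 5 end joining genes (right) with a read in each thinned cell of the old HI, old MID, old LO and young groups, with a small random shift of the points. Red cells were read for at least 8 of 30 G2 and M phase genes, and black lines are medians. Red cells fill the upper range on the left in every group, from 44 cells in HI to 6 in LO, and show no such split on the right.

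Only cells with at least 100000 reads were classed, so leaving out G2 and M phase cells also left out kept cells below that depth. This left 47 and 32 HI cells and 55 and 62 LO cells. Of 29 filtered members, 4 were then higher in HI than in LO cells, against 2.78% of all genes, and 2 were lower, against 3.11%. The higher ones were Brca1, Brca2, Xrcc3 and Rbbp8, and the lower ones Blm and Fancf. Some members called with all cells could not be called here, because they fell below the level filter. They were Rad51ap1, Rad54b, Bard1, Fancd2, Fanca, Fanci and Clspn. Among them, Fanci (1.01 and 1.09) and Rad54b (0.66 and 0.75) still had the size of difference needed for a call in each table. The median over the 23 recombination and Fanconi members was then 0.49 (-0.01 and 0.69), and that over the end joining members 0.28 (0.33 and 0.24). Brca1 was then at 1.90 (1.44 and 2.36), and Brca2, at 1.68 with all cells, at 0.996 (1.03 and 0.97). Fancd2 turned to -0.96 (-1.45 and -0.46), at only 1.36 and 0.26 CPM in HI cells and 5.47 and 0.73 in LO cells. Bard1 came to 0.09 (0.22 and -0.05), at 7.58 and 3.13 CPM in HI cells and 6.35 and 3.28 in LO cells. Rad51ap1, Chek1, Rad54l, Exo1 and Clspn had opposite signs in the tables. Rad51ap1 was at -0.60 and 2.59, from 0.71 and 5.04 CPM in HI cells and 1.59 and 0 in LO cells.

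Without cells past either bound and those below 100000 reads, 23 and 10 HI cells and 33 and 39 LO cells were left. Of 25 filtered members, 1 was then higher in HI cells (Rbbp8), against 4.27% of all genes, and 3 were lower (Rad54l, Xrcc2 and Blm), against 7.66%. The median of the 23 recombination and Fanconi members was -0.43 (0.12 and -0.45). Of the 13 members called with all cells, 6 had a mean difference below 0 there (Brca2, Rad54l, Exo1, Fancd2, Fanci and Clspn), with Brca2 at -0.12, Rad54l at -1.73 and Exo1 at -2.20. The rest of the 13 stayed above 0 but were not called, from Bard1 at 0.15 to Chek1 at 1.98 and Brca1 at 2.48. With 10 HI cells in the second table, these values rest on few cells.

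**Figure D4:**
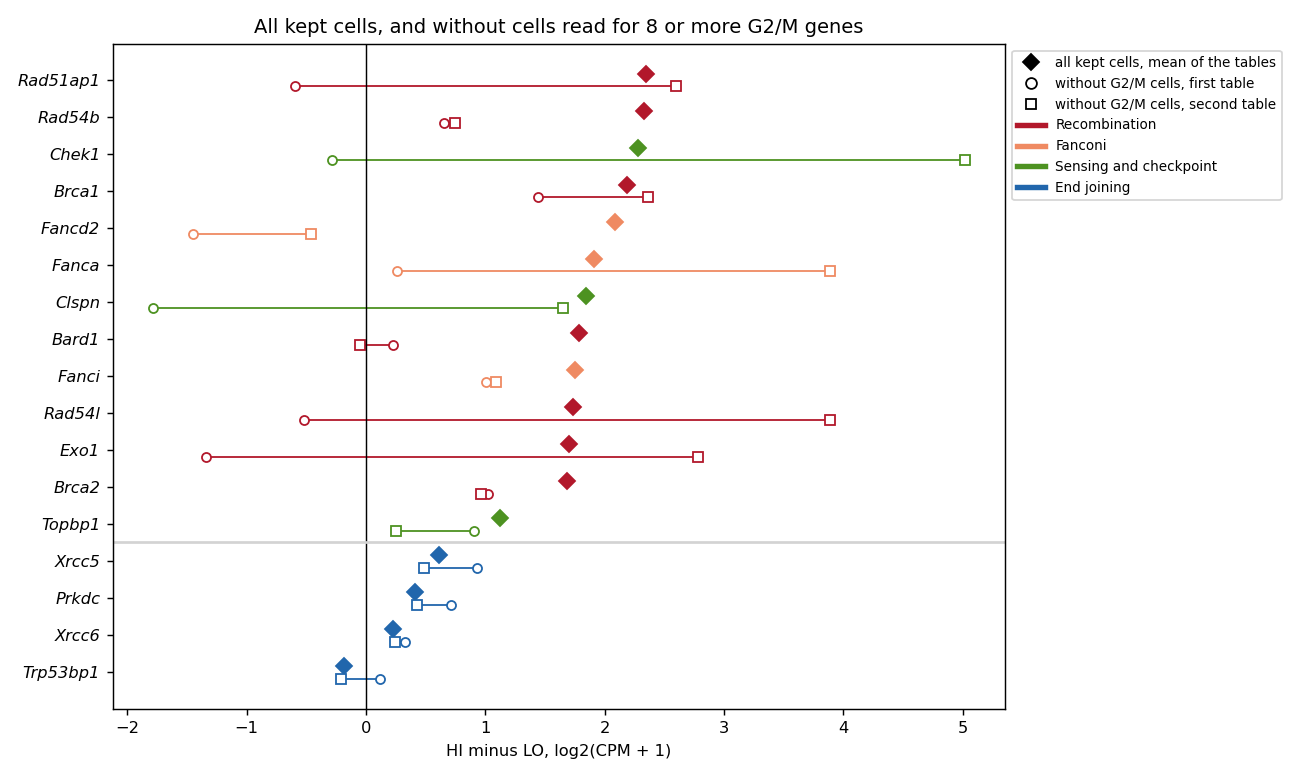
Difference of old HI minus old LO cells on the log2(CPM + 1) scale for the 13 called members and 4 end joining genes. Diamonds are the mean over the tables for all kept cells. Hollow circles and squares are the first and second table without cells read for at least 8 G2 and M phase genes or holding fewer than 100000 reads. Brca1, Brca2 and Fanci stay at 0.97 or above in both tables, Fancd2 moves left of 0, and 5 genes lie on both sides of 0 with a wide gap between the tables. Without those cells Rad51ap1, Rad54b, Bard1, Fancd2, Fanca, Fanci and Clspn were below the level filter.

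Genes of the same pathways outside the member list were given as counts. Of 24 filtered further recombination genes, 13 were called higher in HI than in LO cells and 0 lower, among them Brip1, a helicase bound to BRCA1, at 2.94. Of 12 further Fanconi genes, 2 were higher, Ube2t, the ubiquitin-conjugating enzyme of the pathway, at 1.35 and the deubiquitinase gene Usp1 at 0.72. Of 17 further signalling genes, 3 were higher, among them the fork protection genes Tipin at 1.39 and Timeless at 1.06. Of 10 filtered further end joining genes, 2 were higher, Xrcc1, a scaffold of single-strand break repair and of alternative end joining, at 0.84 and Rif1 at 0.79, and 0 were lower. Targets of p53, which rise after DNA damage, gave 0 calls in either direction among 16 filtered genes, a count near the 4.85% and 3.30% of all genes, with a median of 0.04 over 24.

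The comparison of old with young cells, with old as the mean of HI, MID and LO, asks what differs with age. It called 1 of 36 members higher in old cells, against 3.91% of all genes, and 1 lower, against 2.33%. Neither count can be told from the share of all genes. The member higher in old cells was Xrcc3, a recombination gene, which averaged 35.6 and 39.4 CPM in old cells and 21.6 and 17.1 in young cells, a difference of 0.93 (0.70 and 1.15). Its levels were 36.2 and 49.3 CPM in HI cells, 47.2 and 33.3 in MID cells, 23.4 and 35.5 in LO cells, and 21.6 and 17.1 in young cells, so each of the 6 old values lay above both young values. The lower member was Fancd2, with 11.02 and 14.4 CPM in old cells and 17.9 and 25.1 in young cells, a difference of -0.71 (-0.65 and -0.77). Its HI values overlapped with the young ones, and its MID and LO values lay below them.

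Chek1 was next highest in old cells at 0.59 (0.51 and 0.67) and Atm next lowest at -0.29 (-0.31 and -0.28), and neither was called. The median of old minus young was 0.05 (-0.04 and 0.13) over the recombination and Fanconi members and -0.07 (-0.05 and -0.08) over the end joining members. Of the 13 recombination members, 8 had opposite signs in the tables, among them Brca1, at 0.32 (-0.40 and 1.03), and Rad54l, at 0.42 (-0.27 and 1.104).

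The average over the old groups joined values on both sides of the young level. HI cells were higher than young cells in 8 of 36 members, against 4.78% of all genes, and lower in 0, against 3.81%. These were Brca2, Bard1, Xrcc3, Fanca, Fanci, Chek1, Topbp1 and Clspn, with Fanca at 1.34 (1.37 and 1.30) and Chek1 at 1.33 (1.05 and 1.60). LO cells were higher than young cells in 1 member, Fancf at 0.91 (1.02 and 0.80), a count that cannot be told from the 4.77% of all genes. They were lower in 4, against 4.58%: Fancd2 at -1.80 (-1.21 and -2.39), Rad54b at -1.73 (-2.87 and -0.58), Rad51ap1 at -1.57 (-0.75 and -2.38) and Brca2 at -0.96 (-1.31 and -0.61). Brca2 was the member called in both directions. The 2 comparisons share the young cells. Against young cells, the median over the recombination and Fanconi members was 0.61 (0.50 and 0.67) in HI cells. It was -0.25 (-0.39 and -0.06) in MID and -0.47 (-0.46 and -0.22) in LO cells. The share of G2 and M phase cells lay in the same order, at 35.8% in HI, 14.1% in young, 7.09% in MID and 4.88% in LO cells. Its part in these differences was not tested.

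**Figure D5:**
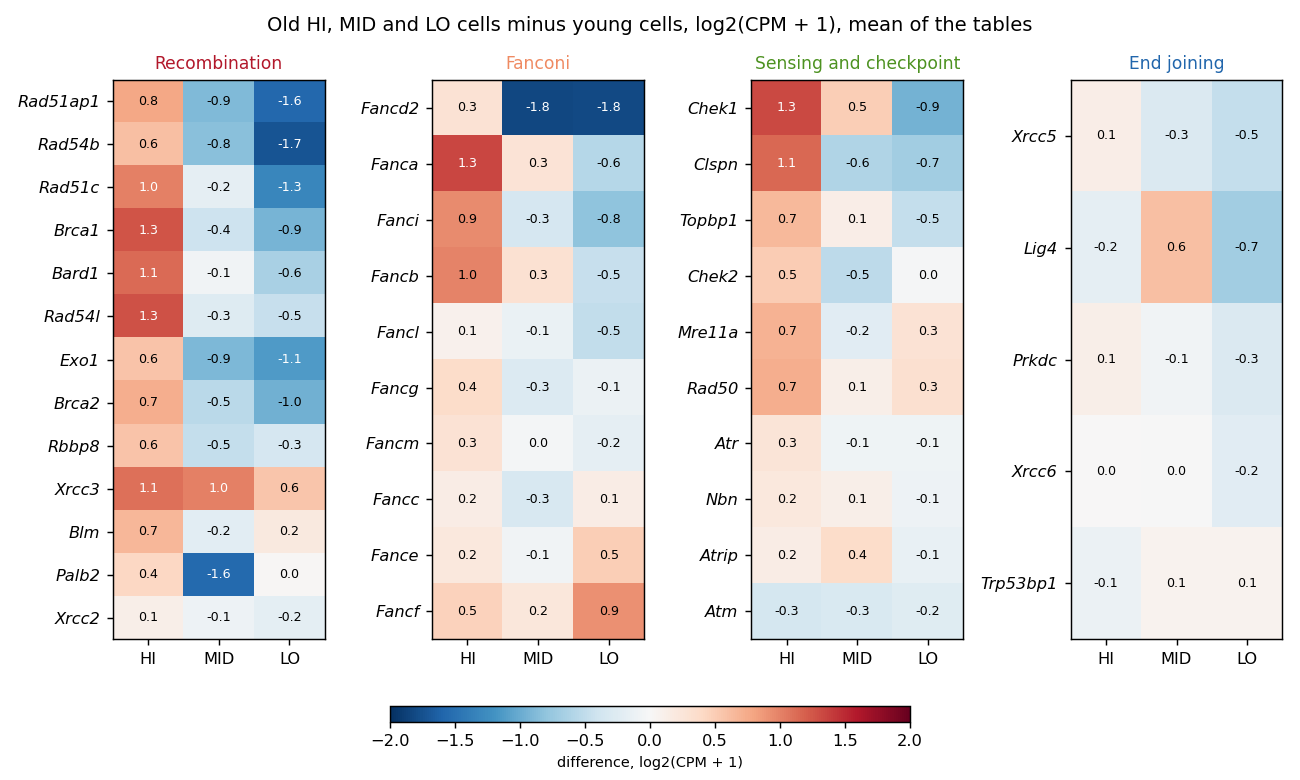
Difference of old HI, old MID and old LO cells from young cells on the log2(CPM + 1) scale, as the mean of the tables, for the 38 members of 4 roles. Red marks higher and blue lower than young. Most recombination genes are red in HI and blue in LO, as is Chek1 in the signalling panel at 1.33 and -0.95, Xrcc3 is red in all 3 old groups, and Xrcc6, Prkdc and Trp53bp1 stay pale.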

How the data were processed

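Raw counts for 563 single cells were deposited by the authors in 2 tables, as whole numbers of reads per gene. Named in the submitters' processing notes, with no role, are mm10, DESeq2, featureCounts 2.0.0, Subread and STAR 2.7.3a. Reads in genes made up 22.3% and 25.0% of a table's total and ambiguous reads 3.80% and 4.26%, and whether strand was used is not given in the sources used here. Symbols and exon lengths came from GENCODE M21 (GRCm38). Cells were kept with at least 50000 nuclear gene reads, 1000 genes and at most 20% mitochondrial reads, and sorted singly, so no doublets were called. Kept cells were pooled by group and table into 8 sums of counts, scaled with TMM factors (0.953 to 1.035) from edgeR 4.0.16 in R 4.3.3. No test was run, because each group is 1 sample. Other steps used Python 3.11.15 (SciPy 1.17.1, pandas 2.3.3, matplotlib 3.10.9, NumPy 2.4.6). Only the sums, differences and calls of HI minus LO cells were tested on simulated data. The stricter rule asked for a mean log2 difference of at least 1, at least 20 CPM, a read in 20% of cells in each table and no cell above 20% of the reads.

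Values in full go to all end joining members, to the 3 highest and 1 lowest HI minus LO members of each other role, and to the 2 highest and 2 lowest old minus young members, with levels of Atm for the second table only. Palb2 was added after its values were seen. The members, roles, lists and the cell cycle bounds were chosen with earlier results of these data known. Alternatives were DESeq2 1.42.0 size factors, no composition factors, other pseudocounts, level filters and cell sets, means over cells, thinned cells, single tables and leaving out each cell.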

Additional observations from a re-analysis of the deposited data

How the results depend on the processing

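The 13 of 36 members called higher in HI than in LO cells (4.85% of all genes) came to 13 with DESeq2 size factors, without composition factors, with a pseudocount of 0.1 CPM and with all cells, to 12 to 15 with 10 CPM, thinned cells, means over cells, no level filter or the stricter size rule, and to 19 and 18 in the first and the second table alone, where 12.6% and 15.1% of all genes passed. They came to 2 of the 13 that pass a filter of 50 CPM and 25% of cells (3.18% of all genes). Without cells past the G2 and M phase bound they came to 4 of 29 (2.78%), and without cells past either bound to 1 of 25 (4.27%). Below, S phase cells are named for the bound they passed, which does not place a cell in S phase. The HI minus LO median of the recombination and Fanconi members, 1.45, lies in a gap between high and low members, and was 1.602 and 0.73 with pseudocounts of 0.1 and 10 CPM, 0.90 over members above the level filter, 1.68 above the stricter one, 1.15 as means over cells, 1.55 with thinned cells, 1.005 and 0.887 in single tables, 0.49 without G2 and M phase cells and -0.43 without S phase cells too. Leaving out each cell in turn gave 1.26 to 1.67. The end joining median, 0.41, was 0.21 with 10 CPM, 0.32 under both level filters, 0.26 and 0.20 in single tables, 0.28 and 0.17 without the cycling cells, and 0.21 to 0.48 with each cell left out. The signalling median was 0.69 in the second table and 0.000414 without G2 and M or S phase cells. The old minus young median of recombination and Fanconi members was 0.32 without those cells and 0.017 to 0.19 with each cell left out. That of end joining was 0.049 as means over cells, -0.019 with thinned cells, -0.12 and -0.11 without the cycling cells, -0.083 without cells with markers of another type, and -0.095 to -0.0091 with each cell left out. Of the 36 members with a positive difference, 5 turned negative without G2 and M phase cells and 21 without S phase cells too. Of the 13 called these were 2 and 6, with Fancd2 at -0.96 without G2 and M phase cells and -1.12 without S phase cells too, Clspn at -0.067 and -1.90, and, under the second setting, Fanci at -0.93, Brca2 at -0.12, Rad54l at -1.73 and Exo1 at -2.20. Fancd2 and Clspn were below the level filter without G2 and M phase cells. The rest of the 13 stayed above 0 under that setting, with Bard1 the lowest at 0.15 and Brca1 the highest at 2.48. The cause of these shifts was not tested beyond the removal of the cells named, with which kept cells below 100000 reads were also left out. No paired analysis was possible because no test was run and replicate numbers only count cells. Depth limits Lig4, Atrip, Rad51c and Fancb, and the number of cells limits all values without cycling cells.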
